A study of Mus musculus with 15 samples.

Results

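DNA replication and S phase genes were followed in mouse mammary organoids exposed to beads carrying the growth factor FGF10. The set held 48 genes of the 54456 in the deposited count table, found by exact match of the gene name, and all 48 passed the filter on low counts. They encode the proteins that license origins, open and copy DNA, load the sliding clamp, supply nucleotides and rebuild chromatin behind the fork, together with the cyclins E, E2F1 and a few fork regulators.

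Replication is prepared in G1, when the origin recognition complex, CDC6 and CDT1 load the MCM helicase onto DNA, and it starts in S phase, when CDC45 and the GINS complex switch the helicase on. Many of these genes are transcribed at the boundary between G1 and S phase under E2F transcription factors, so their transcripts are widely read as a mark of cells that are entering or passing through S phase. In the mammary gland, FGF10 comes from the stroma and acts on epithelial FGF receptors during growth and branching of the ducts.

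The organoids were wild type (WT), labelled as mammary epithelial cells of the mammary gland, and were set beside beads soaked beforehand either in FGF10 or in the control protein bovine serum albumin (BSA). All groups were kept in DMEM/F12 with L-Ala-Gln, ITS and P/S. The study asked whether an epithelial-to-mesenchymal transition goes with collective migration of the epithelium. There were 3 libraries of each group, namely the 0 h start, FGF10 at 36 h, BSA at 36 h, FGF10 at 72 h and BSA at 72 h, 15 libraries in all. The labels of the 0 h libraries name neither bead. The titles of the FGF10 72 h libraries read FGF0, and the treatment label, which reads FGF10, was followed. The labels give no age, sex or number of animals. RNA came from whole organoid samples, so fewer cells in S phase and less of each transcript per cell cannot be told apart.

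Depth ran from 11965322 to 24261233 counts per library. The epithelial markers Epcam, Cdh1, Krt8, Krt18, Krt5 and Krt14 together reached 12587 to 27813 CPM (library-scaled counts, TMM-normalised by edgeR) in every library. A first library stood apart for the genes described here. In 0 h replicate 1 all 48 genes were above both other 0 h libraries, which held for 38.7% of all tested genes, with a median ratio of 3.46 over the 48 genes and 1.01 over all tested genes. The 10 mitotic markers, among them Mki67 and Top2a, summed to 831 CPM in that library, against 70.0 and 38.5 CPM in 0 h replicates 2 and 4. A second library, FGF10 36 h replicate 4, was the highest of its group for 30 of the 48 genes and the lowest for 12, with 1.11% of counts from mitochondrial genes against 3.60% to 3.97% in replicates 1 and 3. Values are therefore given with all 15 libraries and without 0 h replicate 1, while FGF10 36 h replicate 4 was kept in both fits. The 0 h library was set aside for its high proliferation transcripts, the measure tested here, so the fit without it is no independent check.

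The promoters of these genes share sequence that the choice of genes did not use. RefSeq promoter windows of the assembly GRCm38.p6, from 250 bases before to 50 after the annotated start, were matched for 40 genes (46 windows). The E2F core (4 variants, TTCCCGC and TTGGCGC and TTCGCGC and TTGCCGC, both strands) lay in 60.9% of these windows, against 9.57% of all 32851 windows and 23.8% of the 6563 windows at least as rich in CG dinucleotides as the median window of these genes. The CCAAT box, searched on both strands, lay in 58.7% of the windows, against 37.4% of all windows and 30.6% of the CG-rich ones. The order of the other motifs turned with the windows they were set against. The GC box GGGCGG lay in 71.7% of the windows, against 35.7% of all and 83.8% of the CG-rich ones, and the CHR element TTTGAA in 10.9%, against 17.9% of all and 5.82% of the CG-rich ones. The windows of these genes were not themselves cut by CG content, so those below their median stand against richer windows. Neighbouring cores can overlap, as in Mcm6, where cores on opposite strands share bases. Shown are the 250 bases before the start for 4 genes with several cores (Mcm5, Mcm6, Pola1 and Dtl), for Rrm2, which had the largest FGF10 difference, and for Rfc5, which had none of the cores in this stretch. Capitals mark the E2F cores.

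Mcm5, chr8:75109259-75109508, plus strand: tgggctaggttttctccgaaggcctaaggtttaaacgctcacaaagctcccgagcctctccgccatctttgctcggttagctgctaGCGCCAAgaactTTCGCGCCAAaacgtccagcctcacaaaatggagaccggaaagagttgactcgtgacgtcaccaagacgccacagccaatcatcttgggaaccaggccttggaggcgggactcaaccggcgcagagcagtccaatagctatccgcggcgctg
Mcm6, chr1:128359706-128359955, minus strand: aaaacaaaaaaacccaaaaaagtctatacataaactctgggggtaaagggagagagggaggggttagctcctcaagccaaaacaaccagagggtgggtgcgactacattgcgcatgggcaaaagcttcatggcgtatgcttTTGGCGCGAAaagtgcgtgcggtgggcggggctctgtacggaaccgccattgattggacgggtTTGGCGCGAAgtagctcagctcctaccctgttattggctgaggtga
Pola1, chrX:93632156-93632405, minus strand: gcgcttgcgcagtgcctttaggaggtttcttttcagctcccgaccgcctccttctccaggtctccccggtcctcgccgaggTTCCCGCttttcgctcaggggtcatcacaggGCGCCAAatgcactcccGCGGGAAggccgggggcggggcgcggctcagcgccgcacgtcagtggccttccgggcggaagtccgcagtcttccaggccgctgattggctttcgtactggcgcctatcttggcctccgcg
Dtl, chr1:191575545-191575794, minus strand: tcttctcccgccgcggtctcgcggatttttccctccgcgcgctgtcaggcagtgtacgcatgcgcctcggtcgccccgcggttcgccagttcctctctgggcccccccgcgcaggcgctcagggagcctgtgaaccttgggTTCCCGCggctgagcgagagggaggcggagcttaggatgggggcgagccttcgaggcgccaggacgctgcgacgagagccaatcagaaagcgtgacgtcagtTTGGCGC
Rrm2, chr12:24708004-24708253, plus strand: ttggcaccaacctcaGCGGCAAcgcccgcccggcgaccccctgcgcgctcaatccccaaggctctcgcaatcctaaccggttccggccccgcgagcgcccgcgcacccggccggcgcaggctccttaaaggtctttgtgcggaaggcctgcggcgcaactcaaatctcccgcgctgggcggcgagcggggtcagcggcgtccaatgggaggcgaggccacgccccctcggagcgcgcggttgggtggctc
Rfc5, chr5:117389024-117389273, minus strand: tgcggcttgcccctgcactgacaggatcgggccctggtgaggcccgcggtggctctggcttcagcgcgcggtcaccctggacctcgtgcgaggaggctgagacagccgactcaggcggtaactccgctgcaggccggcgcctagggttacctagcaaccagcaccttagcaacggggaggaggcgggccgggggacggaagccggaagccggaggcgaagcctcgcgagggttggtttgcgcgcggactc

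The first bases of the cores lay 164, 152 and 149 bases before the start in Mcm5, 109, 106, 46 and 43 bases before it in Mcm6, 169, 138 and 121 in Pola1, 109 and 7 in Dtl, and 235 in Rrm2. Genes with and without a core differed little in the FGF10 over BSA difference. Its median log2 value at 72 h was 1.03 over the 25 genes with a core and 1.12 over the 15 without, and at 36 h both medians were 0.63. For FGF10 36 h against 0 h, without 0 h replicate 1, the median was 2.34 with a core (0.72 to 5.88) and 2.02 without (0.78 to 4.15). A match describes letters in a window and shows no binding.

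Summed over the 48 genes, expression stood at 2498, 748 and 774 CPM in 0 h replicates 1, 2 and 4. The sum was 3055, 2511 and 3430 CPM in FGF10 36 h libraries, against 2204, 1621 and 1908 CPM in BSA 36 h libraries. It was 1984, 1977 and 2722 CPM in FGF10 72 h libraries, against 1083, 1105 and 1114 CPM in BSA 72 h libraries. The FGF10 and BSA libraries did not overlap at either time. The plot of each gene by library shows the same order in nearly every row.

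**Figure D1:**
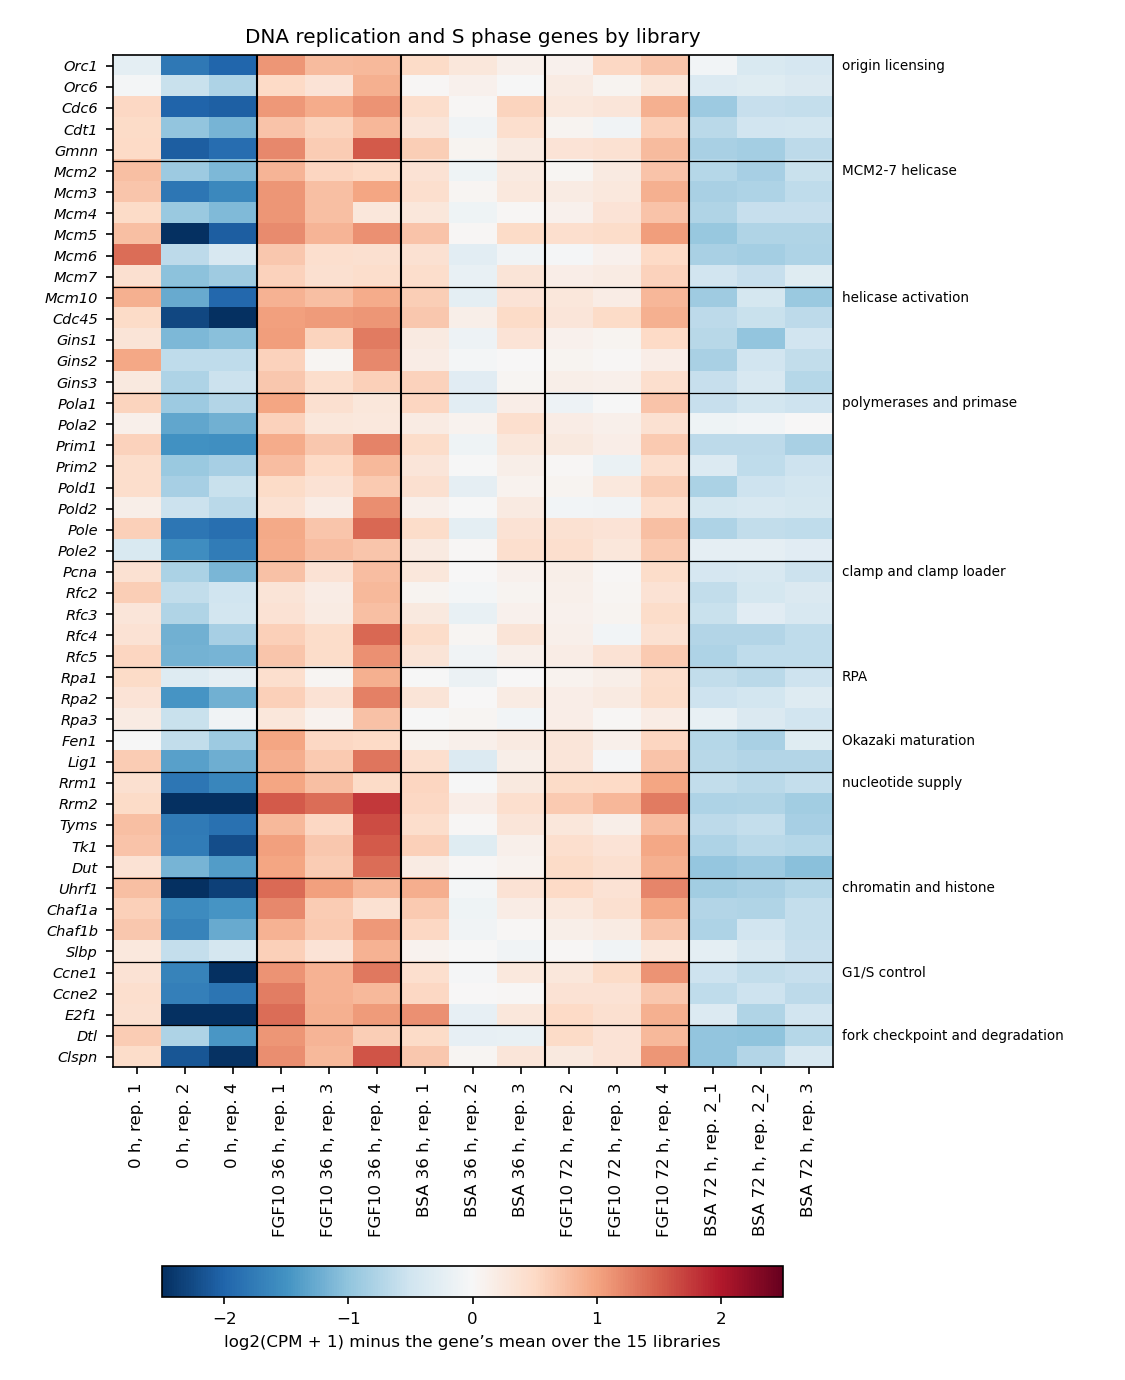
Level of each of the 48 genes (rows, grouped by role) in each of the 15 libraries (columns), as log2(CPM + 1) minus the mean of that gene over the libraries, with the colour scale ending at the darkest shades. The 0 h replicates 2 and 4 are blue in nearly all rows, 0 h replicate 1 is not, FGF10 36 h libraries are the reddest and BSA 72 h libraries are pale blue.

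Among the 4 later groups the mean was highest in FGF10 36 h and lowest in BSA 72 h for 48 of 48 genes. In between, FGF10 72 h lay above BSA 36 h for 43 genes. The 0 h replicates 2 and 4 were both below every later library for 37 genes, while 0 h replicate 1 lay within the range of the BSA 36 h libraries for 17 genes, above it for 27 and below it for 4. Mcm6 was the only gene whose highest library was 0 h replicate 1. The share of all tested genes in each of these orders was not counted. The counts of this paragraph therefore have no background and cannot be read as particular to the 48 genes.

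Spread within groups differed. The median coefficient of variation over the 48 genes was 19.8% in FGF10 36 h, 16.9% in BSA 36 h, 19.7% in FGF10 72 h and 7.12% in BSA 72 h. At 0 h it was 78.2% with replicate 1 and 10.6% without. FGF10 72 h replicate 4 was the highest of its group for 48 of 48 genes, and BSA 36 h replicate 2 was the lowest of its group for 43. For these counts, too, the share of all tested genes was not counted.

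Per kilobase of annotated exon, the most abundant transcripts in FGF10 36 h libraries were Rrm2 at a mean of 68.0 CPM per kb, Dut at 61.8, Gmnn at 54.0, Pcna at 45.2 and Pold2 at 44.4. The least abundant were Pole at 1.57, Mcm10 at 1.68, Fen1 at 1.79 and Orc1 at 1.94 CPM per kb. The divisor counts all annotated exons of a gene, which need not match the length of its transcript, so this ranking is approximate. Counting left out fragments that overlap more than 1 gene, which lowers some levels. Other annotated genes overlapped 84.2% of the exon bases of Fen1, 67.3% of those of Gins2 and 52.5% of those of Chaf1a, so the levels of these genes are uncertain.

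Of the 9 comparisons made, 2 had 0 calls both with and without 0 h replicate 1, the change of the FGF10 effect and FGF10 at 72 h against 36 h. In the others the number of genes called differed between the fits, also where 0 h was not one of the groups compared. A gene was called at an adjusted p under 0.05 in edgeR's quasi-likelihood test, with Benjamini-Hochberg adjustment over the 18140 genes tested, and all groups share an estimate of the spread. Counts of genes with an unadjusted p under 0.05 are also given below. The share of all tested genes under that limit was not counted, so those counts have no background. The plot of calls gives both fits.

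**Figure D2:**
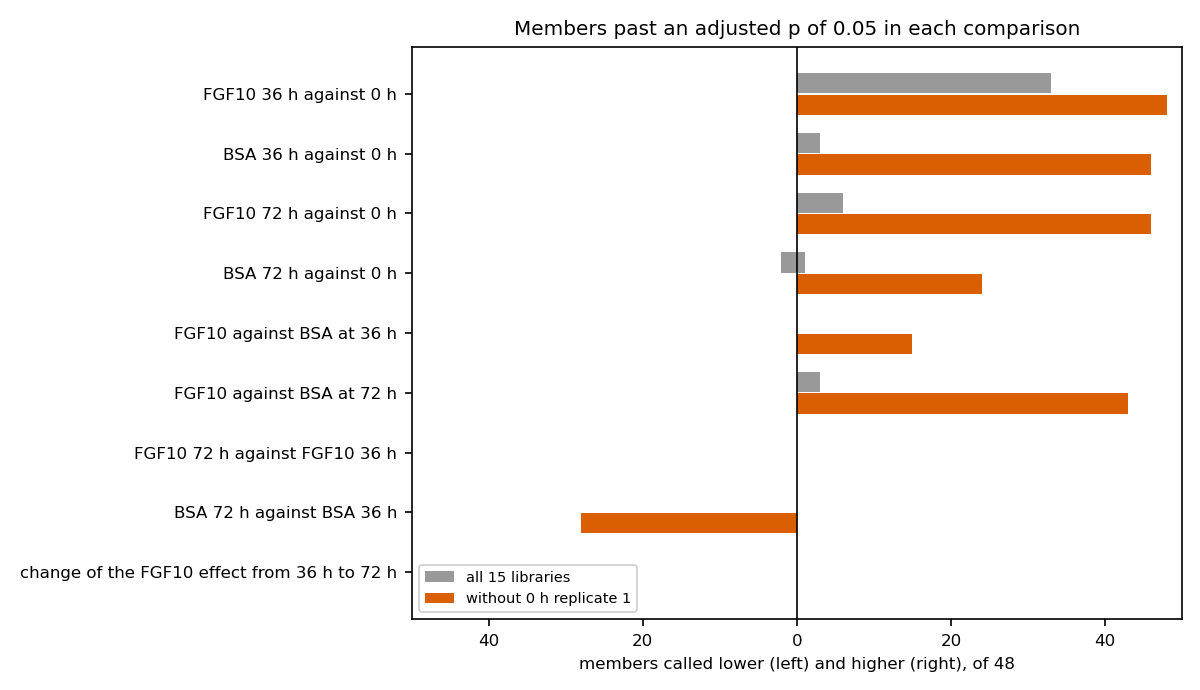
Number of the 48 genes called higher (right of 0) or lower (left of 0) in each comparison, with all 15 libraries (grey) and without 0 h replicate 1 (orange). The calls were 3 and 46 for BSA 36 h against 0 h, 6 and 46 for FGF10 72 h against 0 h, and 3 and 43 for FGF10 against BSA at 72 h.

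FGF10 was set against BSA at 36 h first. All 48 genes had positive log2 differences, with a median of 0.63 against 0.00 over all tested genes, and for 35 genes every FGF10 library was above every BSA library, which held for 9.88% of all tested genes. With all 15 libraries 0 of 48 genes passed edgeR's test (background 0.954% called higher), 7 had an unadjusted p under 0.05, and DESeq2 called 1 (2.9% of all genes it tested). Without 0 h replicate 1, 15 genes rose (background 2.37%). The 15 were Orc6, Gmnn, Mcm3, Cdc45, Gins1, Prim1, Pole, Pole2, Rfc5, Lig1, Rrm2, Dut, Chaf1b, Slbp and Ccne2. That count was sensitive to single libraries. Removal of replicate 1, 2 or 3 of BSA 36 h gave 23, 2 and 1 calls, removal of replicate 1 or 3 of FGF10 36 h gave 2 and 25, and removal of BSA 72 h library 2_1 or 2_2 gave 6 each. Over all single libraries left out, FGF10 36 h replicate 4 included, the count ran from 1 to 25. With only the 6 libraries compared in the fit, 1 gene was called (background 0.221%).

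At 72 h the gap between FGF10 and BSA had a median log2 difference of 1.08, against -0.01 over all tested genes, and the libraries of the groups did not overlap for 48 of 48 genes (21.9% of all tested genes). With all 15 libraries 3 genes rose, Dut, Rpa1 and Fen1 (background 3.01% called higher), 30 had an unadjusted p under 0.05 and DESeq2 called 12 (5.31% of all genes it tested). This count was 0 when any of the 6 libraries at 72 h was left out. When 0 h replicate 1 was left out, 43 genes rose (background 5.93%), and 24 when FGF10 72 h replicate 4 was left out as well. The 5 genes that did not pass were Pola1, Pola2, Pold2, Rpa3 and Slbp. A fit of only the 6 libraries at 72 h, which holds no 0 h library and counts 2_1 and 2_2 as separate, called 48 (background 14.2%). With 2_1 and 2_2 summed, the fit of all libraries called 0 (background 0.816%).

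**Figure D3:**
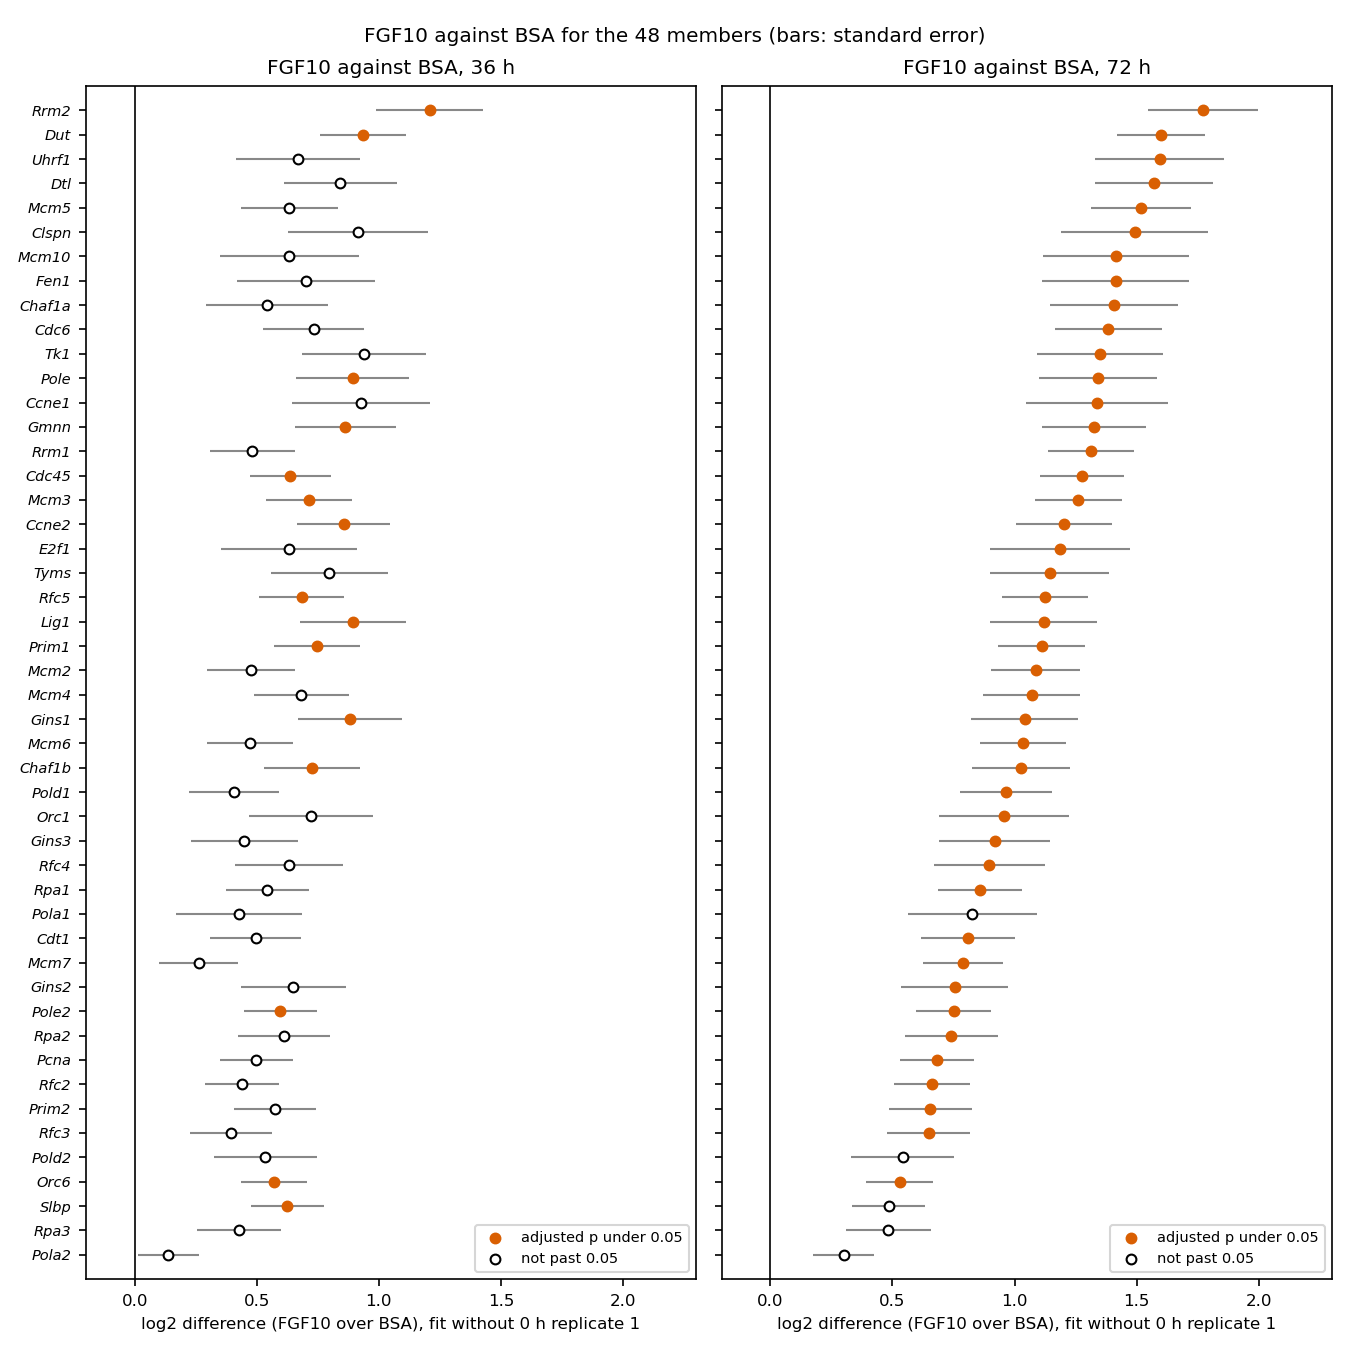
FGF10 over BSA log2 difference (horizontal axis) of each of the 48 genes at 36 h (left) and 72 h (right), from the fit without 0 h replicate 1, with standard errors as bars and called genes filled. All points lie right of 0, from 0.14 for Pola2 to 1.21 for Rrm2 at 36 h and from 0.30 for Pola2 to 1.77 for Rrm2 at 72 h.

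The origin licensing genes are described first, and differences are given as log2 FGF10 over BSA ± SE from the fit without 0 h replicate 1, with edgeR's adjusted p without and then with that library. Cdc6, the loader that places MCM on origins (chr11:98798627-98814766, plus strand, GRCm39), stood at 11.4, 1.16 and 1.099 CPM at 0 h, 17.2, 15.4 and 17.8 CPM in FGF10 36 h, 10.8, 7.78 and 11.8 CPM in BSA 36 h, 9.29, 9.702 and 14.9 CPM in FGF10 72 h and 3.59, 4.77 and 4.67 CPM in BSA 72 h libraries. FGF10 libraries were above BSA libraries at both times without overlap, and 0 h replicate 1 was about as high as the BSA 36 h libraries. Cdc6 differed by 0.73 ± 0.21 at 36 h (adjusted p = 0.0566 and 0.556) and by 1.38 ± 0.22 at 72 h (adjusted p = 0.00164 and 0.22). Gmnn, which encodes geminin, the inhibitor of CDT1 that prevents relicensing, stood at 80.5, 54.3 and 103 CPM in FGF10 36 h against 53.8, 36.1 and 40.6 CPM in BSA 36 h libraries, and at 43.8, 45.1 and 60.1 CPM in FGF10 72 h against 19.2, 18.8 and 21.4 CPM in BSA 72 h libraries. It differed by 0.86 ± 0.21 at 36 h (adjusted p = 0.0309 and 0.434) and by 1.33 ± 0.21 at 72 h (adjusted p = 0.00177 and 0.187). Cdt1, the target of geminin, differed by 0.50 at 36 h (adjusted p = 0.138 and 0.483) and by 0.81 at 72 h (adjusted p = 0.0153 and 0.201). Orc1, the subunit of the origin recognition complex that varies most with the cell cycle, had few reads, 59, 2 and 1 counts at 0 h, 121, 112 and 99 in FGF10 36 h, 80, 72 and 59 in BSA 36 h, 54, 58 and 94 in FGF10 72 h and 58, 37 and 36 in BSA 72 h libraries. Its difference was 0.72 ± 0.26 at 36 h (adjusted p = 0.115 and 0.558) and 0.96 ± 0.27 at 72 h (adjusted p = 0.0337 and 0.394).

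Of the 6 subunits of the MCM2-7 ring, which unwinds DNA at the fork, 1 rose at 36 h without 0 h replicate 1 and 6 at 72 h, and 0 at either time with it. Mcm5 (chr8:75836197-75855067, plus strand) stood at 89.03, 8.12 and 11.7 CPM at 0 h, 119, 95.002 and 116 CPM in FGF10 36 h, 86.4, 53.3 and 73.4 CPM in BSA 36 h, 70.4, 72.7 and 109 CPM in FGF10 72 h and 26.6, 30.7 and 30.8 CPM in BSA 72 h libraries. It had the largest 72 h difference of the ring, 1.52 ± 0.21 (adjusted p = 0.000704 and 0.204), and 0.63 ± 0.20 at 36 h (adjusted p = 0.0821 and 0.643). Mcm3 stood at 88.3, 68.7 and 81.4 CPM in FGF10 36 h against 54.8, 41.7 and 48.7 CPM in BSA 36 h libraries and was the ring subunit that passed at 36 h, by 0.71 ± 0.17 (adjusted p = 0.0325 and 0.494). At 72 h Mcm3 differed by 1.26 ± 0.18 (adjusted p = 0.000891 and 0.181). Mcm6 (chr1:128259327-128287401, minus strand) was the most abundant subunit of the ring at 0 h, with 288, 69.2 and 82.3 CPM in replicates 1, 2 and 4, against 176, 146 and 144 CPM in FGF10 36 h, 142, 90.6 and 103 CPM in BSA 36 h, 108, 117 and 156 CPM in FGF10 72 h and 61.8, 60.3 and 63.8 CPM in BSA 72 h libraries. Its differences were 0.47 at 36 h (adjusted p = 0.131 and 0.572) and 1.03 at 72 h (adjusted p = 0.00241 and 0.158). The proteins form a ring with 1 copy of each subunit. Mean transcript levels in FGF10 36 h libraries ran from 7.88 CPM per kb for Mcm2 and 16.8 for Mcm7 to 33.2 for Mcm6. In 0 h replicates 2 and 4 they ran from 2.41 CPM per kb for Mcm2 and 2.48 for Mcm5 to 16.2 for Mcm6. These levels depend on the annotated exon length, 6956 bases for Mcm2 and 4666 for Mcm6, and are no measure of subunit balance. Undivided, the FGF10 36 h means were 54.8 CPM for Mcm2 and 155 CPM for Mcm6. Other annotated genes overlapped 12.6% of the exon bases of Mcm7.

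Helicase activation involves MCM10, CDC45 and the GINS complex. Cdc45 stood at 24.01, 2.71 and 2.198 CPM at 0 h, 35.4, 36.3 and 37.5 CPM in FGF10 36 h, 27.6, 18.7 and 23.9 CPM in BSA 36 h, 21.1, 23.96 and 32.01 CPM in FGF10 72 h and 10.3, 11.2 and 10.4 CPM in BSA 72 h libraries, with little spread within FGF10 36 h and BSA 72 h. It differed by 0.64 ± 0.17 at 36 h (adjusted p = 0.0425 and 0.625) and by 1.28 ± 0.17 at 72 h (adjusted p = 0.000681 and 0.265). Mcm10, which helps the activated helicase leave the origin, differed by 0.63 ± 0.28 at 36 h (adjusted p = 0.213 and 0.628) and by 1.42 ± 0.30 at 72 h (adjusted p = 0.0083 and 0.223). Gins1 stood at 26.2, 18.3 and 31.1 CPM in FGF10 36 h against 14.4, 11.02 and 15.6 CPM in BSA 36 h libraries, and at 13.1, 12.7 and 17.6 CPM in FGF10 72 h against 7.12, 5.65 and 8.36 CPM in BSA 72 h libraries. FGF10 and BSA libraries did not overlap at either time, and FGF10 36 h replicate 4 was the highest. The Gins1 difference was 0.88 ± 0.21 at 36 h (adjusted p = 0.0309 and 0.187). Gins2, whose exons largely overlap another gene, differed by 0.65 at 36 h (adjusted p = 0.0933 and 0.396) and 0.75 at 72 h (adjusted p = 0.04 and 0.276).

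Of the 8 polymerase and primase genes, 3 rose at 36 h and 5 at 72 h without 0 h replicate 1, and 0 at either time with it. Prim1, the catalytic primase subunit, stood at 66.9, 55.6 and 82.8 CPM in FGF10 36 h against 47.8, 32.2 and 42.4 CPM in BSA 36 h libraries, and at 41.3, 38.8 and 55.1 CPM in FGF10 72 h against 21.6, 21.7 and 19.4 CPM in BSA 72 h libraries. It differed by 0.75 ± 0.18 at 36 h (adjusted p = 0.0282 and 0.414) and by 1.11 ± 0.18 at 72 h (adjusted p = 0.00182 and 0.181). Pole, the catalytic subunit of the leading-strand polymerase, stood at 16.1, 13.5 and 22.999 CPM in FGF10 36 h against 11.3, 6.49 and 10.5 CPM in BSA 36 h libraries, and differed by 0.89 ± 0.23 at 36 h (adjusted p = 0.0412 and 0.448) and by 1.34 ± 0.24 at 72 h (adjusted p = 0.00337 and 0.216). Pold1, the catalytic subunit of the main lagging-strand polymerase, differed by 0.41 at 36 h (adjusted p = 0.22 and 0.458) and 0.96 at 72 h (adjusted p = 0.00553 and 0.0596). Both Pola genes, which encode the polymerase alpha subunits that work with the primase, missed the threshold at both times. Pola1, its polymerase subunit, differed by 0.43 ± 0.26 at 36 h (adjusted p = 0.366 and 0.576) and 0.83 ± 0.27 at 72 h (adjusted p = 0.0616 and 0.218). Pola2, its regulatory subunit, had the smallest differences of the 48 genes, with 57.2, 46.7 and 45.9 CPM in FGF10 36 h against 43.95, 40.6 and 51.6 CPM in BSA 36 h libraries, and 43.4, 41.9 and 49.7 CPM in FGF10 72 h against 35.3, 36.3 and 38.2 CPM in BSA 72 h libraries.

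**Figure D4:**
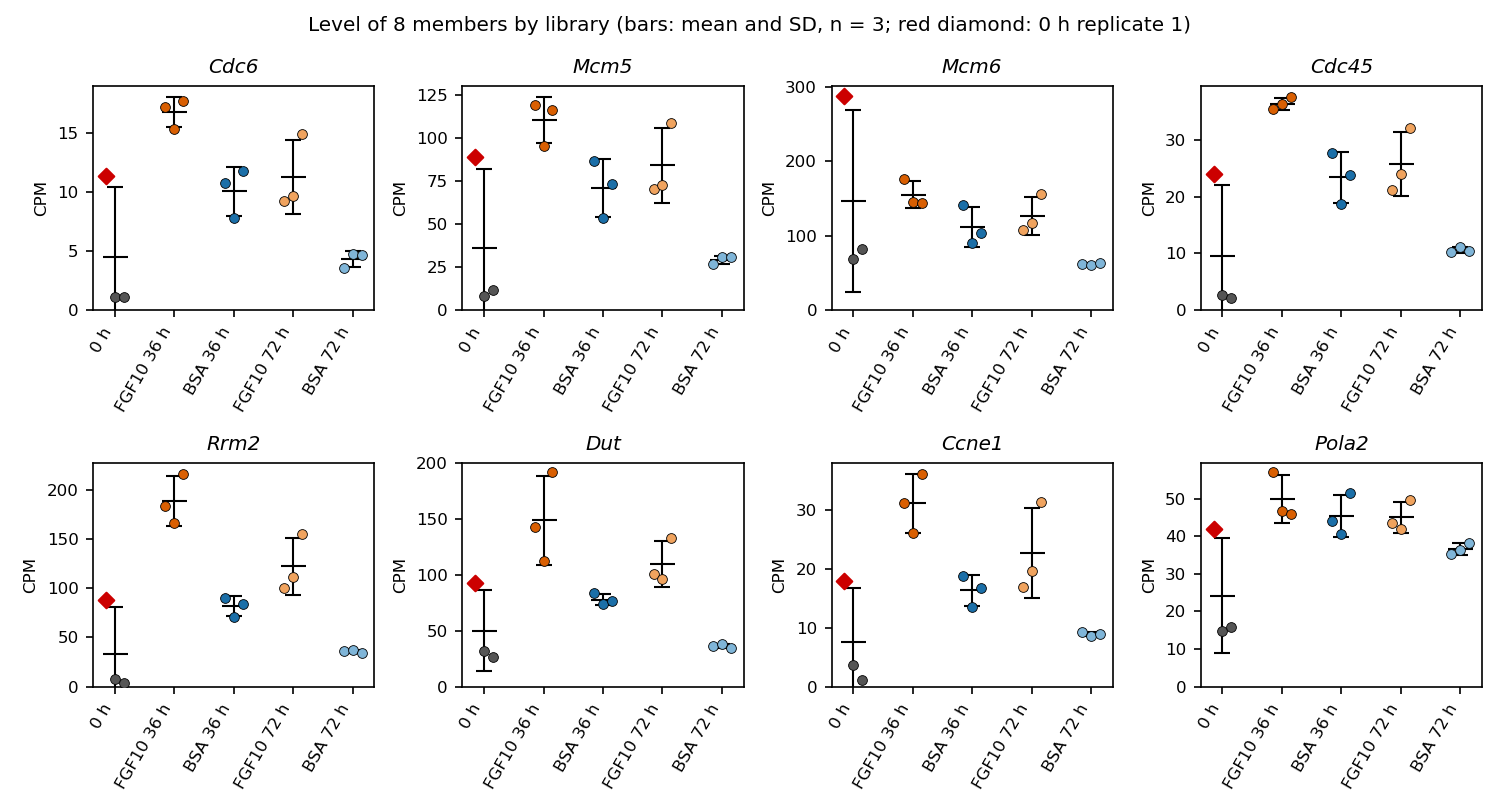
CPM of 8 genes in each library, with the mean and SD of the 3 libraries of each group as bars, the red diamond marking 0 h replicate 1 and each vertical axis starting at 0, which hides the lower end of some 0 h bars. All panels but Pola2 separate FGF10 from BSA at both times, Mcm6 narrowly at 36 h. Pola2 overlaps at 36 h, and the red diamond lies far above the other 0 h libraries in every panel.

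Pcna, the sliding clamp that holds the polymerases on DNA, stood at 91.6, 39.6 and 31.3 CPM at 0 h, 117, 89.6 and 119 CPM in FGF10 36 h, 85.1, 70.2 and 75.1 CPM in BSA 36 h, 77.6, 71.4 and 96.02 CPM in FGF10 72 h and 51.9, 52.96 and 47.8 CPM in BSA 72 h libraries. It differed by 0.50 ± 0.15 at 36 h (adjusted p = 0.0699 and 0.382) and 0.68 ± 0.15 at 72 h (adjusted p = 0.0105 and 0.179). Of the 4 clamp loader genes Rfc2 to Rfc5, 1 rose at 36 h without 0 h replicate 1, Rfc5, and 4 rose at 72 h. Rfc3 differed by 0.39 at 36 h (adjusted p = 0.192 and 0.382) and 0.65 at 72 h (adjusted p = 0.0261 and 0.112). The 3 genes of RPA, which coats single-stranded DNA at the fork, had differences between 0.43 and 0.61 at 36 h, where 0 rose, and between 0.48 and 0.86 at 72 h. Rpa2 differed by 0.61 at 36 h (adjusted p = 0.0777 and 0.417) and 0.74 at 72 h (adjusted p = 0.0236 and 0.272). Rpa1 stood at 54.1, 56.4 and 69.2 CPM in FGF10 72 h against 32.6, 31.6 and 34.9 CPM in BSA 72 h libraries and passed in both fits, by 0.86 ± 0.17 (adjusted p = 0.00647 and 0.033).

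Fen1 and Lig1 encode the nuclease that trims Okazaki fragments and the ligase that joins them. Lig1 stood at 72.2, 60.6 and 97.6 CPM in FGF10 36 h against 51.3, 30.1 and 42.5 CPM in BSA 36 h libraries, and at 47.2, 37.6 and 63.5 CPM in FGF10 72 h against 23.3, 22.5 and 22.5 CPM in BSA 72 h libraries. It differed by 0.89 ± 0.22 at 36 h (adjusted p = 0.0319 and 0.313) and 1.12 ± 0.22 at 72 h (adjusted p = 0.00598 and 0.162). Fen1 had 48, 31 and 63 counts in FGF10 72 h against 20, 15 and 29 counts in BSA 72 h libraries. Its difference was 0.70 at 36 h (adjusted p = 0.164 and 0.294) and 1.41 ± 0.30 at 72 h (adjusted p = 0.00896 and 0.0369), counted only from the part of its exons that no other gene overlaps.

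The nucleotide supply genes had a median difference of 0.93 at 36 h, the highest of the 11 roles, and of 1.35 at 72 h, second to the 1.53 of the fork regulators. Rrm2, the small subunit of ribonucleotide reductase, which limits deoxynucleotide supply in S phase (chr12:24758240-24764145, plus strand), stood at 88.2, 7.73 and 3.46 CPM at 0 h, 183, 166 and 216 CPM in FGF10 36 h, 90.3, 70.4 and 83.9 CPM in BSA 36 h, 99.8, 111 and 155 CPM in FGF10 72 h and 36.4, 37.01 and 33.9 CPM in BSA 72 h libraries. It was 2.31-fold higher with FGF10 than with BSA at 36 h, a log2 difference of 1.21 ± 0.22 (adjusted p = 0.0083 and 0.45), and 3.41-fold higher at 72 h, 1.77 ± 0.22 (adjusted p = 0.000469 and 0.223). Even the lowest FGF10 library was above every BSA library of the same time. Dut, which removes dUTP before it can enter DNA, stood at 143, 113 and 192 CPM in FGF10 36 h against 83.5, 73.8 and 76.6 CPM in BSA 36 h libraries, and at 100.3, 95.9 and 133 CPM in FGF10 72 h against 36.3, 38.1 and 34.3 CPM in BSA 72 h libraries. It differed by 0.93 ± 0.18 at 36 h (adjusted p = 0.0103 and 0.187) and by 1.60 ± 0.18 at 72 h (adjusted p = 0.00024 and 0.0275), so the 72 h call held in both fits. Tyms, which makes thymidylate, stood at 87.9, 71.95 and 156 CPM in FGF10 36 h against 68.3, 51.3 and 61.96 CPM in BSA 36 h libraries, with FGF10 36 h replicate 4 far above the others of its group. It differed by 0.80 at 36 h (adjusted p = 0.0718 and 0.494) and 1.14 at 72 h (adjusted p = 0.00942 and 0.275). Tk1, the salvage thymidine kinase, differed by 0.94 at 36 h (adjusted p = 0.0509 and 0.442) and 1.35 at 72 h (adjusted p = 0.00553 and 0.221).

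Chromatin genes act behind the fork, where UHRF1 brings the maintenance methylase to new DNA and CAF-1 deposits histones. Uhrf1 stood at 51.2, 4.06 and 5.11 CPM at 0 h, 81.6, 61.7 and 53.96 CPM in FGF10 36 h, 56.7, 28.7 and 38.8 CPM in BSA 36 h, 42.5, 38.6 and 70.5 CPM in FGF10 72 h and 15.8, 16.7 and 17.8 CPM in BSA 72 h libraries. The groups overlapped at 36 h and not at 72 h. It differed by 0.67 ± 0.25 at 36 h (adjusted p = 0.144 and 0.655) and 1.59 ± 0.26 at 72 h (adjusted p = 0.0023 and 0.221). Chaf1b, a CAF-1 subunit, differed by 0.73 at 36 h (adjusted p = 0.0496 and 0.444) and 1.03 at 72 h (adjusted p = 0.00573 and 0.231). Slbp, which binds the stem-loop of histone mRNAs, stood at 150.4, 126 and 182 CPM in FGF10 36 h against 105, 98.9 and 93.3 CPM in BSA 36 h libraries, and at 101, 92.9 and 119.9 CPM in FGF10 72 h against 83.2, 74.6 and 66.6 CPM in BSA 72 h libraries. It passed at 36 h, by 0.62 ± 0.15 (adjusted p = 0.0299 and 0.11), and not at 72 h, by 0.48 ± 0.15 (adjusted p = 0.0527 and 0.158).

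The G1/S control genes encode cyclins E1 and E2, which drive entry into S phase with CDK2, and E2F1, an activator of many of the other genes. Ccne1 (chr7:37797409-37806959, minus strand) stood at 18.02, 3.67 and 1.099 CPM at 0 h, 31.3, 26.1 and 36.2 CPM in FGF10 36 h, 18.9, 13.5 and 16.8 CPM in BSA 36 h, 16.98, 19.7 and 31.4 CPM in FGF10 72 h and 9.33, 8.71 and 8.94 CPM in BSA 72 h libraries. It differed by 0.93 ± 0.28 at 36 h (adjusted p = 0.0763 and 0.46) and 1.34 ± 0.29 at 72 h (adjusted p = 0.0106 and 0.241). Ccne2 differed by 0.86 at 36 h (adjusted p = 0.0217 and 0.396) and 1.20 at 72 h (adjusted p = 0.00193 and 0.194). E2f1 stood at 28.5, 2.71 and 2.69 CPM at 0 h, 57.9, 40.1 and 45.7 CPM in FGF10 36 h, 48.5, 18.2 and 26.1 CPM in BSA 36 h, 30.6, 28.4 and 40.6 CPM in FGF10 72 h and 16.6, 12.3 and 14.99 CPM in BSA 72 h libraries. BSA 36 h replicate 1 reached into the FGF10 range. The E2f1 difference was 0.63 ± 0.28 at 36 h (adjusted p = 0.208 and 0.666) and 1.18 ± 0.29 at 72 h (adjusted p = 0.0185 and 0.35).

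Dtl, the substrate receptor of the ligase that destroys CDT1 at replicating DNA, and Clspn, which relays checkpoint signals from the fork, were among the genes with the largest 72 h differences. Dtl stood at 33.9, 28.1 and 23.9 CPM in FGF10 36 h against 21.6, 13.1 and 13.2 CPM in BSA 36 h libraries, and at 21.6, 19.6 and 27.6 CPM in FGF10 72 h against 7.18, 7.12 and 8.88 CPM in BSA 72 h libraries. At 72 h the log2 difference of Dtl was 1.57 ± 0.24 (adjusted p = 0.00137 and 0.0545) and that of Clspn 1.49 ± 0.30 (adjusted p = 0.00664 and 0.262).

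The difference between FGF10 and BSA was larger at 72 h than at 36 h in 46 of 48 genes, with Orc6 and Slbp as the exceptions, and the median change on the log2 scale was 0.40. The test of the change itself called 0 of 48 genes with edgeR in both fits (background 0% in both), and DESeq2 also called 0 in both. Unadjusted p-values were under 0.05 for 0 genes with all 15 libraries and 12 without 0 h replicate 1. Uhrf1, chosen after its values were seen, had the largest change, 0.93 ± 0.36 (adjusted p = 0.681 and 0.955), followed by Mcm5 with 0.88 ± 0.28 (adjusted p = 0.61 and 0.954). The larger number of calls at 72 h is therefore no evidence of a larger effect there.

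Between 36 h and 72 h all 48 genes had lower means in both treatments. With BSA the median log2 difference, 72 h over 36 h, was -0.86, and every 72 h library was below every 36 h library for 48 of 48 genes (16.5% of all tested genes). With all 15 libraries 0 genes passed edgeR's test (background 0.143% called lower), 14 had an unadjusted p under 0.05 and DESeq2 called 0. With 0 h replicate 1 removed, 28 genes fell (background 1.86%), led by Uhrf1 at -1.30 ± 0.26 (adjusted p = 0.0216 and 0.408), Mcm5 at -1.27 ± 0.20 (adjusted p = 0.011 and 0.375) and Cdc6 at -1.22 ± 0.22 (adjusted p = 0.0136 and 0.374). Rrm2 fell by 1.19 on the log2 scale (adjusted p = 0.0156 and 0.505) and Pcna fell by 0.59 (adjusted p = 0.0478 and 0.341), each without that library, while Ccne1, at -0.87 (adjusted p = 0.128 and 0.543), and E2f1, at -1.08 (adjusted p = 0.0616 and 0.483), did not pass. The 28 calls became 0 when any BSA 72 h library was left out too, and 9 and 5 when replicate 1 or 3 of BSA 36 h was. A fit of only the 6 BSA libraries called 38 (background 4.13%).

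With FGF10 the decline had a median of -0.45, and libraries of the 2 times did not overlap for 13 genes (9.90% of all tested genes). With edgeR 0 genes were called in either fit (background 0.491% and 0.75% called lower), with 4 unadjusted p-values under 0.05 with all 15 libraries and 25 without 0 h replicate 1. DESeq2 called 0 with all libraries and 5 without 0 h replicate 1, and without that library edgeR called 9 when FGF10 36 h replicate 3 was left out too and 2 when FGF10 72 h replicate 4 was. Rrm2 differed by -0.63 ± 0.22 (adjusted p = 0.144 and 0.75), Cdc6 by -0.57 (adjusted p = 0.164 and 0.698), Mcm5 by -0.39 (adjusted p = 0.314 and 0.818) and Pcna by -0.41 (adjusted p = 0.162 and 0.513). Ccne1 differed by -0.45 (adjusted p = 0.412 and 0.771) and E2f1 by -0.53 (adjusted p = 0.332 and 0.758).

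Against the 0 h start, the size of every difference hung on 0 h replicate 1. For FGF10 at 36 h the median log2 difference was 1.30 with all 15 libraries and 2.23 without that library. In the full fit 33 genes rose (background 19.3% called higher), a count that was 11 and 12 when 0 h replicate 2 or 4 was left out, 14 and 12 when replicate 1 or 4 of FGF10 36 h was, and 4 when only the 6 libraries compared were fitted (background 9.92%). All 48 rose without 0 h replicate 1 (background 19%). Rrm2 rose by 5.12 ± 0.32 on the log2 scale without that library (adjusted p = 7.40e-08) and by 2.49 ± 0.85 with it (adjusted p = 0.036). Clspn, with 10 counts in each of 0 h replicates 2 and 4, rose by 4.72 ± 0.45 without it (adjusted p = 2.35e-06) and by 2.13 ± 0.76 with it (adjusted p = 0.043), and E2f1 rose by 4.15 ± 0.40 and 2.03 ± 0.73 (adjusted p = 4.33e-06 and 0.0446). Ccne1 rose by 3.81 and 1.99 (adjusted p = 7.81e-06 and 0.032), Cdc6 by 3.89 and 1.81 (adjusted p = 3.67e-07 and 0.0409) and Pcna by 1.62 and 1.00 (adjusted p = 8.33e-06 and 0.0164). Mcm5 rose by 3.46 without 0 h replicate 1 (adjusted p = 3.23e-07) and did not pass with it, at 1.58 (adjusted p = 0.0833). For Orc1, with 2 and 1 counts in 0 h replicates 2 and 4, no fold is given against those libraries.

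For BSA at 36 h the result again differed between the fits, and with all libraries the libraries of the 2 groups overlapped for 44 of 48 genes. Every BSA 36 h library was above every 0 h library for 4 genes and below for 0. Over all tested genes these shares were 20.2% and 20.6%. Without 0 h replicate 1, 46 genes rose (background 14.2%), all but Rpa1 and Rpa3, with a median of 1.47. With all 15 libraries the median was 0.63 and 3 rose, Orc1, Pola2 and Pole2, a share below the background of 12.7% called higher, a count that was 1 when any of 0 h replicates 2 and 4, the BSA 36 h libraries or BSA 72 h libraries 2_1 and 2_2 was left out. Rrm2 rose by 3.91 ± 0.30 without 0 h replicate 1 (adjusted p = 6.22e-07) against 1.28 ± 0.82 with it (adjusted p = 0.276), and Mcm5 rose by 2.82 (adjusted p = 2.60e-06) against 0.95 (adjusted p = 0.323). Pole2, a subunit of the leading-strand polymerase, passed in both fits, at 2.19 and 1.45 (adjusted p = 2.31e-06 and 0.00313). Cdc6 had 3.16 and 1.08 (adjusted p = 3.73e-06 and 0.237), Pcna 1.12 and 0.50 (adjusted p = 0.000295 and 0.231), Ccne1 2.89 and 1.06 (adjusted p = 0.000121 and 0.256), and E2f1 3.52 and 1.40 (adjusted p = 2.45e-05 and 0.177). The BSA and FGF10 comparisons share the 0 h libraries.

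FGF10 at 72 h also stood differently against the start in the 2 fits, and with all libraries the groups overlapped for 40 of 48 genes. All FGF10 72 h libraries were above all 0 h libraries for 8 genes and below for 0. Over all tested genes these shares were 23.9% and 24.0%. Without 0 h replicate 1, 46 genes rose (background 14.6%), all but Rpa1 and Rpa3, with a median log2 difference of 1.73. With all libraries the median was 0.80 and 6 rose, Orc1, Orc6, Pola2, Pole2, Fen1 and Dut, a share near the background of 13.8% called higher, which became 1 without 0 h replicate 2 or FGF10 72 h replicate 4, 2 without 0 h replicate 4 and 3 without FGF10 72 h replicate 2 or 3. Rrm2 had 4.50 ± 0.31 without 0 h replicate 1 and 1.86 ± 0.83 with it (adjusted p = 1.57e-07 and 0.115), and Mcm5 had 3.07 and 1.19 (adjusted p = 9.12e-07 and 0.209). The values were 3.32 and 1.24 for Cdc6 (adjusted p = 1.54e-06 and 0.168), 1.21 and 0.59 for Pcna (adjusted p = 0.000118 and 0.152), 3.36 and 1.53 for Ccne1 (adjusted p = 2.52e-05 and 0.101), and 3.62 and 1.51 for E2f1 (adjusted p = 1.39e-05 and 0.142).

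For BSA at 72 h the direction itself turned with 0 h replicate 1. The median log2 difference from 0 h was -0.26 with all libraries and 0.59 without that library. In the full fit Pole2 rose (background 12.2% called higher) and Mcm6 and Rpa1 fell (background 13% called lower). Pole2 had 0.94 ± 0.31 (adjusted p = 0.0383), Mcm6 -1.24 ± 0.42 (adjusted p = 0.0474) and Rpa1 -0.64 ± 0.22 (adjusted p = 0.0409). The call of Pole2 was lost when 0 h replicate 2 or 4, any BSA 72 h library or FGF10 72 h replicate 2 was left out, and the 2 lower calls became 1 or 0 without any single library other than 0 h replicates 2 and 4, whose removal left the count within 1.5 times. With 0 h replicate 1 left out, 24 genes rose (background 12%) and 0 fell. Rrm2 then rose by 2.72 ± 0.29 (adjusted p = 1.48e-05), against 0.09 with all libraries (adjusted p = 0.953). Mcm5 rose by 1.55 (adjusted p = 0.000415), against -0.32 with all libraries (adjusted p = 0.777). Cdc6 rose by 1.94 (adjusted p = 0.000336), against -0.14 (adjusted p = 0.908), and Pcna by 0.53 (adjusted p = 0.0395), against -0.10 (adjusted p = 0.858). Ccne1 rose by 2.02 (adjusted p = 0.00209) and E2f1 by 2.43 (adjusted p = 0.000521), against 0.20 and 0.32 with all libraries (adjusted p = 0.868 and 0.795).

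Most other genes of the pathway also had positive differences, 38 of 42 further replication and chromatin genes at 36 h and 38 at 72 h, and 20 and 21 of 24 G1/S regulators. Rb1, the retinoblastoma protein that restrains E2F, and Ccnd3 were among those with negative differences at both times. Of the 42 genes, 0 rose with FGF10 over BSA at 36 h with all libraries and 6 without 0 h replicate 1, and 2 and 21 at 72 h, with median log2 differences of 0.42 and 0.57. Of all tested genes, 0.954% and 2.37% were called higher at 36 h and 3.01% and 5.93% at 72 h, in the same order. This is also the background for the other lists of this paragraph. With all libraries the 2 of 42 genes at 72 h were near it. Dbf4, the activator of the CDC7 kinase that fires origins, and Ssrp1, a subunit of the FACT histone chaperone, were the 2 that passed at 72 h with all libraries. Dbf4 had a 72 h difference of 1.18 (adjusted p = 0.0018 without 0 h replicate 1 and 0.0261 with it). Of the 24 G1/S regulators, 0 and 3 rose at 36 h and 1 and 13 at 72 h, and the 1 of 24 was near the background. The gene called in both fits was Cdk4. The calls without 0 h replicate 1 included E2f8 at 1.77 (adjusted p = 0.000191), the S phase cyclin Ccna2 at 1.64 (adjusted p = 0.0034) and cyclin D1, Ccnd1, at 1.18 (adjusted p = 0.0055). Among 6 tested CDK inhibitors Cdkn2b rose at 72 h in both fits, by 1.24 (adjusted p = 0.0058 without 0 h replicate 1 and 0.034 with it). Cdkn1a, which encodes p21, stood at 189.7, 166 and 159 CPM in FGF10 72 h against 295, 299 and 250.4 CPM in BSA 72 h libraries and did not pass (log2 difference -0.72, adjusted p = 0.207 and 0.217). The 10 mitotic markers summed to 1279, 1042 and 1375 CPM in FGF10 36 h against 832, 525 and 636 CPM in BSA 36 h libraries, and to 823, 767 and 1161 CPM in FGF10 72 h against 334, 321 and 307 CPM in BSA 72 h libraries, and 0 and 10 of them rose at 72 h with and without 0 h replicate 1.

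Markers of other cell types moved with the groups too. The 6 adipocyte markers summed to 8.88 to 68.2 CPM in FGF10 72 h against 409 to 413 CPM in BSA 72 h libraries, and 4 of the 6 fell with FGF10 at 72 h in both fits (2.98% of all genes were called lower with all libraries and 4.36% without 0 h replicate 1), with Adipoq and Cidec at 0 in FGF10 72 h replicates 3 and 4. The 8 immune markers summed to 23.6 to 46.5 CPM in FGF10 72 h against 133 to 173 CPM in BSA 72 h libraries, and 6 of 8 fell in both fits. The 7 endothelial markers summed to 2.87 to 13.6 CPM against 44.3 to 112.6 CPM and the 7 fibroblast markers to 12.3 to 33.7 CPM against 36.1 to 80.4 CPM in the same groups. Of these, 2 of 7 endothelial and 0 of 7 fibroblast markers fell with all libraries, and 3 and 2 without 0 h replicate 1. The 6 epithelial markers summed to 23376 to 27813 CPM in FGF10 72 h against 13062 to 13981 CPM in BSA 72 h libraries. In both fits 2 of the 6 rose (3.01% of all genes were called higher with all libraries and 5.93% without 0 h replicate 1). Krt14 stood at 11949, 10280 and 13608 CPM in FGF10 72 h against 3388, 3686 and 3912 CPM in BSA 72 h libraries. In the same groups Krt5 stood at 3064, 2830 and 3226 against 1212, 1306 and 1335 CPM. Epcam stood at 1828, 1823 and 2062 against 1586, 1604 and 1477 CPM, so the sum is no measure of epithelial content. At 36 h the immune markers summed to 23.7 to 68.1 CPM with FGF10 against 49.7 to 109.7 CPM with BSA, and the adipocyte markers to 12.9 to 20.3 CPM against 29.1 to 75.4 CPM. At 0 h the immune markers summed to 399 to 490.5 CPM and the fibroblast markers to 626, 269 and 93.5 CPM in replicates 1, 2 and 4. The part of these cells in the differences of the replication genes was not tested.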

How the data were processed

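RNA of 15 libraries was sequenced in pairs from a stranded mRNA kit. The deposited values are raw fragment counts per gene, made by the authors with featureCounts 2.0.1, per the file headers, over exons grouped by gene name, with no strand and with multi-mapping fragments and those overlapping several genes left out. The build GRCm39, HISAT2 2.2.1, cutadapt 1.9.1, HTSeq, FastQC and DESeq2 are also named in the submitters' processing notes. The counting used no strand, so reads of a gene and of an antisense partner cannot be told apart. All sample columns were used.

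Genes were kept by edgeR's filterByExpr (minimum count 10, minimum total 15), which left 18140 and removed 36316. Library-scaled counts (CPM) were TMM-normalised and, where genes are compared, divided by the deposited gene length. The test was edgeR 4.0.16 (R 4.3.3, limma 3.58.1), a robust quasi-likelihood fit of all 15 libraries in 5 groups with 10 residual degrees of freedom, Benjamini-Hochberg adjusted over all tested genes. The same fit without 0 h replicate 1 stands beside it. The scripts were tested on simulated data. The labels do not say that libraries of a group came from separate animals, so p-values measure the spread between these libraries. The BSA 72 h libraries 2_1 and 2_2 share a first number, and the labels do not say whether they come from 1 culture. They differed by more than counting noise (mean chi-square 4.32 over 19178 genes, against 9.58 and 11.7 for the other pairs of that group), which does not show separate cultures. They were kept as separate libraries, with their sum as an alternative. Alternatives were each library left out, DESeq2 1.42.0 and its size factors, no filter, a replicate block, a sum of 2_1 and 2_2, and a fit of only the groups compared. All 48 genes could be named with their levels. Differences with p-values are given for a panel of 28 genes in the FGF10 and BSA comparisons, for 6 genes in the others, and for up to 6 called genes with the largest change per direction. The members and lists were chosen with earlier results of these data known.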

Additional observations from a re-analysis of the deposited data

How the results depend on the processing

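The counts of called genes depended on the libraries in the fit and on the settings of the test. The cause was not tested. With all 15 libraries, leaving out 1 library gave 0 to 15 genes higher with FGF10 than with BSA at 36 h, 0 to 43 at 72 h, 11 to 48 for FGF10 36 h against 0 h, 1 to 46 for BSA 36 h against 0 h, 1 to 46 for FGF10 72 h against 0 h, 0 to 24 higher and 0 to 3 lower for BSA 72 h against 0 h, and 0 to 28 lower for BSA 72 h against BSA 36 h. Without 0 h replicate 1, leaving out a further library gave 1 to 25, 24 to 47, 46 to 48, 36 to 46, 38 to 48, 18 to 27 higher, and 0 to 42 lower in the same order, and 0 to 9 lower for FGF10 72 h against FGF10 36 h. With only the groups compared, the counts with all libraries were 1 at 36 h and 48 at 72 h for FGF10 over BSA (0.221% and 14.2% of all tested genes). The counts against 0 h were 4, 0 and 2 for FGF10 36 h, BSA 36 h and FGF10 72 h (9.92%, 9.15% and 13.1%). They were 0 higher and 0 lower for BSA 72 h against 0 h (13.3% and 13.4%), and 38 lower against BSA 36 h (4.13%). With no filter the counts against 0 h were 11, 1 and 3 for FGF10 36 h, BSA 36 h and FGF10 72 h (8.27%, 5.71% and 6%). BSA 72 h had 0 higher and 1 lower (5.55% and 6.1%). With 2_1 and 2_2 summed the counts were 0 for FGF10 over BSA at 72 h (0.816%) and 1 for BSA 36 h against 0 h (11.8%). BSA 72 h had 0 higher and 0 lower against 0 h (9.33% and 8.88%). DESeq2, which gave 1 of the 48 genes no adjusted p, called 1 at 36 h and 12 at 72 h (2.9% and 5.31% of all genes it tested). In the fit without 0 h replicate 1, whose alternatives were chosen after seeing the data, summing 2_1 and 2_2 gave 8 for FGF10 over BSA at 36 h and 0 for BSA 72 h against BSA 36 h, and DESeq2 called 27 at 36 h and 5 lower for FGF10 72 h against FGF10 36 h. Counts given without a share, here and above, have no background under their own setting. That share moved with the setting, from 0.816% to 14.2% for FGF10 over BSA at 72 h. Changes in those counts can therefore not be read as particular to the 48 genes.

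Only the genes named per comparison were followed through all settings, and their reversals were in BSA 72 h against 0 h and FGF10 72 h against 36 h. Other genes turned as well. Mcm6 in BSA 36 h against 0 h was -0.39 with all libraries and 0.56 without 0 h replicate 1. Of the 48 genes, 38 were negative in BSA 72 h against 0 h with all libraries and 3 without that library. These counts were 3 and 0 for BSA 36 h and 2 and 0 for FGF10 72 h against 0 h. With 0 h libraries left out 1 at a time, the BSA 72 h log2 difference ran from -0.78 to 1.55 for Mcm5, -0.61 to 1.94 for Cdc6, -0.37 to 0.53 for Pcna, -0.44 to 2.72 for Rrm2, -0.32 to 2.02 for Ccne1, -0.15 to 2.43 for E2f1, -0.53 to 2.58 for Clspn and -0.38 to 2.13 for Cdc45. The highest value was always the one without 0 h replicate 1, and removal of 0 h replicate 2 gave -0.36 for Rrm2, -0.106 for Ccne1, -0.107 for E2f1 and -0.32 for Cdc45. Clspn, at -0.0057 with all libraries, was 0.16 without BSA 72 h library 2_1, 0.02 without 2_2, 0.010 with DESeq2 size factors, 0.077 with 2_1 and 2_2 summed, 0.053 with only the groups compared and 0.084 with DESeq2.

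Replicate numbers recur across groups. Deviations from the group means correlated above 0.1 in 9 of 21 pairs with the same number (-0.158 to 0.449) and in 10 of 69 pairs with different numbers. The highest were 0.449 and 0.286, for replicates 1 and 3 of FGF10 36 h and BSA 36 h. The same-number pairs not counted above were at or under 0.1, so the numbers were not taken to pair the libraries throughout. Shared handling of some, the 36 h libraries included, was not tested. With the replicate block, 0 genes were called at 36 h and 7 at 72 h for FGF10 over BSA (0.937% and 2.95% of all tested genes). The median at 36 h went from 0.63 to 0.56, with all 48 genes still positive. The counts against 0 h were 43, 9 and 33 for FGF10 36 h, BSA 36 h and FGF10 72 h (20.4%, 14.4% and 16.1%). BSA 72 h had 2 higher and 0 lower against 0 h (11.1% and 11.6%). FGF10 72 h against 36 h had 7 lower without 0 h replicate 1. With the block the BSA 72 h difference from 0 h was 0.81 for Mcm5, 0.73 for Cdc6, 0.27 for Pcna and 1.11 for Clspn, and that of FGF10 72 h from 36 h was 0.089 for Mcm5 and 0.033 for E2f1. The block moved the median over the 48 genes of FGF10 72 h against 36 h from -0.45 to -0.15, with 13 positive, and that of BSA 72 h against 0 h from -0.26 to 0.27. Depth limits several genes at 0 h, with counts as low as 1 for Orc1, 10 for Clspn, and 12 for Cdc6 and Fen1.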
